A study of Homo sapiens with 9 samples.

Results

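The D-type cyclins, their kinases CDK4 and CDK6, the inhibitors of these kinases and the retinoblastoma family form the switch that commits a cell to DNA replication. The list of this axis has 10 genes: the cyclins CCND1, CCND2 and CCND3, the kinases CDK4 and CDK6, the inhibitors CDKN1B and CDKN2C, and the pocket proteins RB1, RBL1 and RBL2. Each gene was read from the probeset that the platform's probe-gene table pairs with its symbol, and CCND2, which has 2 such probesets, from the brighter of them. In this way 8 of the 10 genes were found among the 14884 named genes of the array. CDKN1B, which encodes p27, and CDKN2C, which encodes p18, are not among the genes named in that table and were not analysed here, so the results cover cyclins, kinases and pocket proteins.

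The cells were ZR-75-1, an established line of estrogen receptor-positive, luminal breast cancer cells, and all 9 arrays come from this 1 line. Total RNA was taken 48 h after transfection with a lipid reagent that carried a mimic of miR-150-5p at 50 nM, a non-specific negative control RNA at 50 nM, or no RNA (mock). All 3 groups therefore share the lipid, and the mimic and negative control groups also share the presence of a small RNA. Each group has 3 arrays (replicates 1, 2 and 3). The sources used here do not say whether the transfections were done on separate cultures or days, and the p-values therefore speak only of variation among these samples, which may in part be technical.

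Values are log2 intensities from RMA, in which a step of 1 is a doubling of signal. The array medians over 53617 probesets lay between 4.22 and 4.27, no arrays had identical values, and the number of arrays limits the precision. All 8 luminal markers that could be measured (ESR1, GATA3, FOXA1, KRT8, KRT18, KRT19, EPCAM and TFF1) had a mean above the median of all genes (5.44). This held for 1 of 4 basal or myoepithelial, 0 of 3 fibroblast, 0 of 2 leukocyte and 0 of 4 endothelial markers.

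In a dividing cell, mitogens and, in breast epithelium, estrogen raise cyclin D1, which binds CDK4 or CDK6. The active kinases phosphorylate the pocket proteins, which then release E2F transcription factors, and E2F switches on cyclin E and the genes of DNA synthesis. Inhibitors of the INK4 family bind CDK4 and CDK6 directly, while p27 acts mainly on the later cyclin E and CDK2 complexes. In estrogen receptor-positive breast cancer this axis is a drug target, through inhibitors of CDK4 and CDK6. Arrays measure transcripts, and the amount or phosphorylation of these proteins was not measured here.

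None of the 8 measured genes passed the test for a difference in any of the 3 comparisons, and the largest difference was a lower CDK6 signal in mimic than in negative control arrays. In limma's test across all 14884 genes with Benjamini-Hochberg adjustment and a threshold of 0.05, 0 of 8 passed for mimic against negative control, where 0.551% of all genes passed. For mimic against mock 0 of 8 passed, with 0.302% of all genes passing, and for negative control against mock 0 of 8 passed, with 0% of all genes. At an unadjusted p under 0.05 the mimic differed from the negative control in 1 of the 8 genes, CDK6 (12.6% of all genes), and from mock in 0 (10.7% of all genes). The negative control differed from mock in 1 gene by the same measure, again CDK6 (4.18% of all genes). The median log2 change of the 8 genes was -0.07 against the negative control and -0.10 against mock, beside medians of 0.01 and 0.01 over all genes. Their median absolute change, 0.10 against each control, lay close to that of all genes, 0.10 and 0.09. No gene of the 8 had its 3 mimic arrays outside the range of all 6 control arrays, which occurred for 7.68% of all genes.

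**Figure D1:**
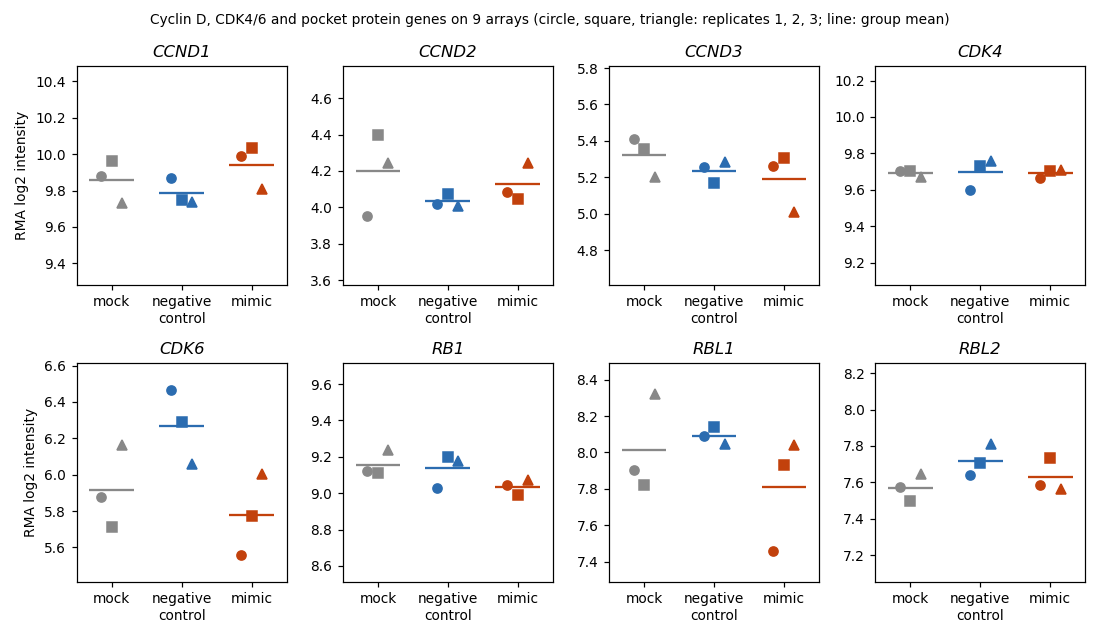
Log2 intensity (vertical axis, RMA log2 units, the same span in each panel) of the 8 measured genes in mock, negative control and mimic arrays; points are single arrays, with circles, squares and triangles for replicates 1, 2 and 3, and lines are group means. CDK4 is nearly level over the 9 arrays. For CDK6 the negative control arrays (6.06 to 6.47) lie above all 3 mimic arrays (5.56 to 6.01). The same holds for RBL1, by a small margin (8.05 to 8.14 above 7.46 to 8.04).

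CCND1 encodes cyclin D1, the D-type cyclin that estrogen induces in breast epithelium. Its log2 intensity was 9.88, 9.96 and 9.73 in mock replicates 1 to 3, 9.87, 9.75 and 9.73 in the negative control and 9.99, 10.03 and 9.81 in the mimic arrays. Mimic replicates 1 and 2 were the highest of the 9 arrays, while mimic replicate 3 fell inside the range of both controls, so the groups overlap. The mean of 9.94 ± 0.12 (SD, n = 3) in the mimic arrays exceeded that of the negative control, 9.78 ± 0.07, by a log2 difference of 0.16 ± 0.09 (SE), with a limma adjusted p = 0.503. Against mock (9.86 ± 0.12) the difference was 0.08 ± 0.09, with an adjusted p = 0.774. The 95% interval against the negative control ran from a ratio of 0.972 to 1.28, and a rise beyond 1.28-fold lies outside it.

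CCND2 encodes cyclin D2, and its brightest probeset was dim, with 29.8% of all named genes dimmer. It read 3.95, 4.40 and 4.24 in mock, 4.02, 4.08 and 4.01 in the negative control and 4.08, 4.05 and 4.25 in mimic arrays. Mock replicates 1 and 2 were the lowest and the highest of all 9, so the mock spread covers both other groups. The log2 difference of mimic from negative control was 0.09 ± 0.11 (adjusted p = 0.780) and that from mock -0.07 ± 0.11 (adjusted p = 0.843). The other named CCND2 probeset was dimmer still, with a mean of 3.87, and differed between mimic and negative control by 0.05 ± 0.12. The table holds no detection call, so at this brightness signal cannot be separated from background.

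CCND3 encodes cyclin D3, and 46.9% of genes were dimmer than its probeset. The values were 5.41, 5.35 and 5.20 in mock, 5.25, 5.17 and 5.29 in negative control and 5.26, 5.30 and 5.01 in mimic arrays. Mimic replicate 3 was the lowest of the 9 arrays, and the other mimic arrays lay within the range of mock arrays. The log2 difference was -0.05 ± 0.10 from the negative control (adjusted p = 0.883) and -0.13 ± 0.10 from mock (adjusted p = 0.658). Without mimic replicate 3 the difference from the negative control was 0.05, so its sign rests on that array.

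CDK4 encodes one of the catalytic partners of the D-type cyclins. Its signal was 9.70, 9.70 and 9.67 in mock, 9.60, 9.73 and 9.76 in negative control and 9.67, 9.70 and 9.71 in mimic arrays. The 9 values span little, and the mimic arrays lie inside the range of the negative control. The log2 difference of mimic from negative control was -0.0036 ± 0.067 (adjusted p = 0.992) and that from mock was 0.00038 ± 0.067 (adjusted p = 0.999). The sign of differences this small turned under other scalings and without single arrays, so no direction is given. The 95% interval for the ratio of mimic to negative control was 0.900 to 1.11, the narrowest of the 8 genes.

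CDK6 encodes the other catalytic partner of the D-type cyclins and had the lowest p of the 8 genes against the negative control, ranking 643 of 14884 genes. Its log2 intensity was 5.88, 5.71 and 6.16 in mock, 6.47, 6.29 and 6.06 in negative control and 5.56, 5.77 and 6.01 in mimic arrays. All mimic arrays were below all negative control arrays, by 0.05 at the closest pair, and they overlapped the mock arrays. The mean was 5.78 ± 0.22 (SD, n = 3) in mimic, 6.27 ± 0.20 in negative control and 5.92 ± 0.23 in mock arrays. The log2 difference of mimic from negative control was -0.49 ± 0.15 (SE), a 1.41-fold lower signal, and did not pass (adjusted p = 0.226). Mimic and mock differed by -0.14 ± 0.15 (adjusted p = 0.780), and this difference was -0.03 without mimic replicate 1 and -0.02 without mock replicate 3.

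CDK6 also read higher in negative control than in mock arrays. The negative control stood 0.35 ± 0.15 above mock on the log2 scale (limma adjusted p = 0.976), the difference counted above at an unadjusted p under 0.05. The mimic comparisons share the mimic arrays and the comparisons with the negative control share those arrays too, so these differences are not independent of each other. The 95% interval of the CDK6 ratio of mimic to mock was 0.717 to 1.15. In the 18 alternative fits the difference from the negative control stayed negative (-0.60 to -0.38), with adjusted p-values from 0.107 to 0.479.

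**Figure D2:**
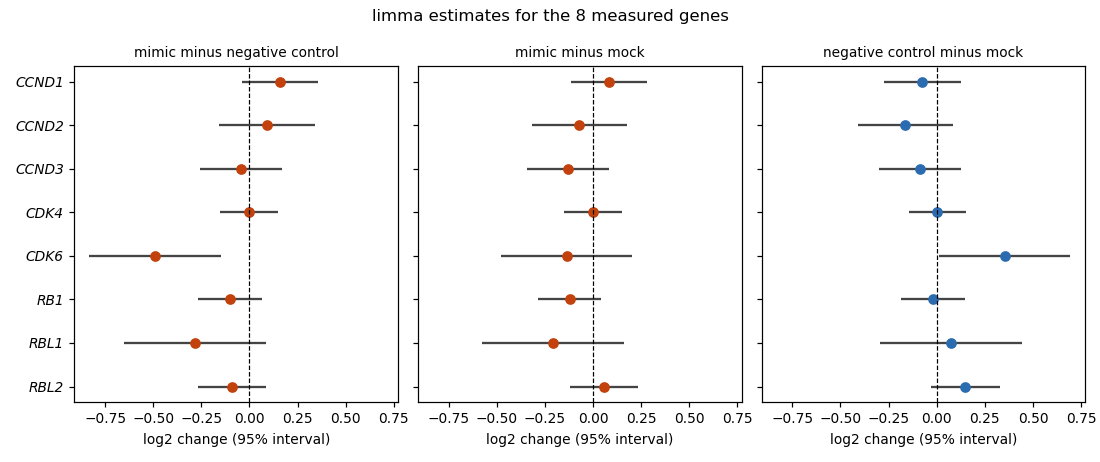
Log2 change (horizontal axis) of the 8 genes with its 95% interval from limma, for mimic minus negative control, mimic minus mock and negative control minus mock. CDK6 is the single gene with intervals, not adjusted over genes, that do not include 0, downward for mimic minus negative control (-0.83 to -0.15) and upward for negative control minus mock (0.01 to 0.69).

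Profiles like that of CDK6 were looked for among the 7441 other named genes brighter than the median. The measure was the root-mean-square difference of the 9 log2 values after each gene was centred on its own mean, for which the median gene had 0.28. The smallest values belonged to EDA2R (0.07), a receptor of the TNF receptor superfamily, CNTRL (0.10), which encodes a protein of the centrosome, TCP11L1 (0.11), SHCBP1 (0.12) and HABP4 (0.12). EDA2R differed between mimic and negative control by -0.43 ± 0.14 on the log2 scale and CNTRL by -0.44 ± 0.15. None of the 5 passed against the negative control or mock. In all 6 genes mimic replicate 1 was the lowest mimic array. The 5 genes were picked by their likeness to CDK6 on these same 9 arrays. Their shared pattern and similar differences therefore follow from that choice.

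**Figure D3:**
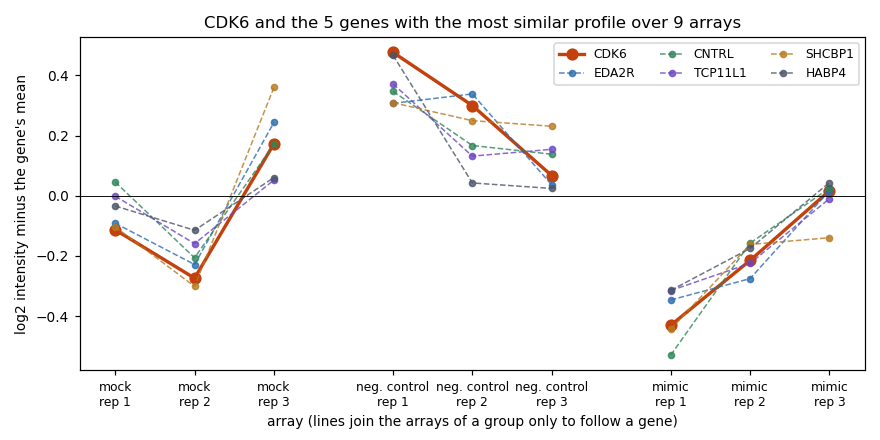
Log2 intensity of CDK6 (thick line) and of the 5 genes with the closest profile, each minus its own mean (vertical axis), on the 9 arrays (horizontal axis); lines join arrays of a group only to follow a gene. The 6 genes lie above their own means in negative control replicate 1 and mock replicate 3, and below them in mimic replicate 1.

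RB1 encodes the retinoblastoma protein, the pocket protein that holds back the activating E2F factors. It read 9.12, 9.11 and 9.24 in mock, 9.03, 9.20 and 9.18 in negative control and 9.04, 8.99 and 9.07 in mimic arrays. The mimic arrays were all below the mock arrays, by 0.04 at the closest pair, and overlapped the negative control, whose replicate 1 was low. RB1 was the 1 gene of the 8 without overlap against mock, beside 12.7% of all genes. The log2 difference was -0.10 ± 0.07 from the negative control (adjusted p = 0.610) and -0.12 ± 0.07 from mock (adjusted p = 0.596). The ratio of mimic to mock had a 95% interval from 0.819 to 1.03.

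RBL1 encodes p107, a pocket protein that partners the repressive E2F factors and whose own gene is a known E2F target. The 60 bases before its RefSeq start (GRCh38.p14, chr20:37095998-37096057, minus strand) are printed because they carry E2F-type letters side by side, shown in capitals:

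RBL1: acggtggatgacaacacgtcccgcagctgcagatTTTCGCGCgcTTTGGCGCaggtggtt

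The first match begins 26 bases and the second 16 bases before the start, with 2 bases between them. The letters searched were TTTCCCGC, TTTCGCGC, TTTGCCGC and TTTGGCGC on both strands of windows from 250 bases before to 50 after each RefSeq start. They occur in 3.31% of 35116 windows. Counted by gene, 5.38% of the 10749 tested genes with a window have a match. Of the 10 listed genes 8 have a window in that table (for RB1 that of a start inside the gene), and RBL1 is the 1 with a match. A match of letters is a description and does not show a binding site.

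RBL1 read 7.91, 7.82 and 8.32 in mock, 8.09, 8.14 and 8.05 in negative control and 7.46, 7.93 and 8.04 in mimic arrays. Mimic replicate 1 stood lowest of all 9, and mimic replicate 3 lay just below the lowest negative control array, so these groups do not overlap. CDK6 and RBL1 were the 2 genes without overlap against the negative control, beside 16.4% of all genes. The mean was 7.81 ± 0.31 (SD, n = 3) in mimic, 8.09 ± 0.05 in negative control and 8.02 ± 0.27 in mock arrays. The log2 difference of mimic from negative control was -0.28 ± 0.16 (SE, adjusted p = 0.522) and that from mock -0.21 ± 0.16 (adjusted p = 0.690). Without mimic replicate 1 the differences were -0.11 and -0.03. RBL1 had the widest interval of the 8 genes, from a ratio of 0.636 to 1.06 against the negative control.

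RBL2 encodes p130, the pocket protein of resting cells. It read 7.57, 7.50 and 7.64 in mock, 7.64, 7.70 and 7.81 in negative control and 7.59, 7.73 and 7.56 in mimic arrays. All 3 groups overlap pairwise, with the negative control the highest on average. The log2 difference was -0.09 ± 0.08 from the negative control (adjusted p = 0.680) and 0.06 ± 0.08 from mock (adjusted p = 0.822), so the sign depends on the control. The negative control stood 0.15 ± 0.08 above mock (limma adjusted p = 0.976).

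The control RNA alone, compared with mock, gave log2 differences from -0.16 (CCND2) to 0.35 (CDK6), of which 4 were positive and 4 negative. CCND1 differed by -0.07 ± 0.09, CCND3 by -0.09 ± 0.10, CDK4 by 0.0039 ± 0.067, RB1 by -0.02 ± 0.07 and RBL1 by 0.08 ± 0.16. For CDK6, CCND2, RBL2 and CDK4 the means of the 2 control groups lay further apart than those of mimic and mock, for CDK4 with both differences near 0, which was not tested. The spread that limma assigned to a single array ran from an SD of 0.08 for CDK4 to 0.20 for RBL1 on the log2 scale. The same log2 difference is thus less well resolved for RBL1 and CDK6 (SD 0.19) than for CDK4, RB1 (0.09), RBL2 (0.10) or CCND1 (0.11).

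The neighbouring genes of the pathway were read from 8 lists with 78 genes, 59 of them named on the array. Against the negative control 1 of 59 rose, 0 fell and 58 did not pass, and the same numbers held against mock. Of all genes 0.551% and 0.302% passed in these comparisons. The gene that rose was ESR1, the estrogen receptor alpha gene and an upstream inducer of CCND1. The median log2 change of the 59 genes was -0.07 against the negative control and 0.00 against mock. At an unadjusted p under 0.05 there were 8 genes (13.6%) and 6 genes (10.2%), close to the shares of all genes given above. The arrays did not overlap for 20 of the 59 genes against the negative control (33.9%, beside 16.4% of all genes) and for 8 against mock (13.6%, beside 12.7%). The lists were chosen with earlier results of these data known, and 7 of the 20 are E2F-regulated genes. The larger share against the negative control is therefore not independent evidence. Between negative control and mock 0 of 59 passed, and 0 had an unadjusted p under 0.05.

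**Figure D4:**
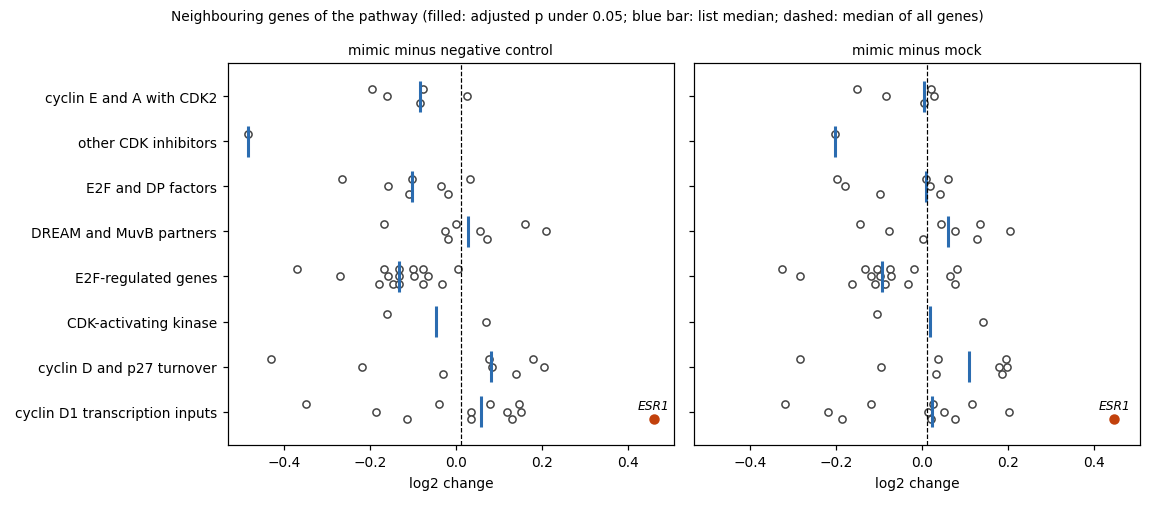
Log2 change (horizontal axis) of the 59 named genes of the 8 lists, for mimic minus negative control and mimic minus mock; filled points passed at an adjusted p under 0.05, blue bars are list medians and the dashed line is the median of all genes. ESR1 is the single filled point in both panels (0.46 and 0.45). Against the negative control 15 of 16 E2F-regulated genes lie below 0, beside 47.7% of the tested genes with a RefSeq window. That list was chosen when lower values of DNA replication genes in these arrays were already known.

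Among the transcription inputs of CCND1, 1 of 12 measured genes rose, 0 fell and 11 did not pass, against either control (0.551% and 0.302% of all genes passed). ESR1 was at 9.01 ± 0.03 (SD, n = 3) in mimic, 8.55 ± 0.08 in negative control and 8.57 ± 0.06 in mock arrays. Its log2 change was 0.46 ± 0.07 (SE, adjusted p = 0.0295) against the negative control and 0.45 ± 0.07 (adjusted p = 0.0406) against mock. The difference passed in 7 of 18 alternatives against the negative control and in 4 of 18 against mock. It no longer passed against mock when any 1 of the 9 arrays was left out, nor against the negative control without any 1 array except mock replicate 3 (highest limma adjusted p = 0.178 and 0.119). The change itself stayed between 0.39 and 0.51. CCND1, one of the genes that the estrogen receptor induces, differed by the 0.16 and 0.08 given above.

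Upstream of the kinases, 1 of 5 other inhibitors was measured. CDKN2A, which encodes the INK4 inhibitor p16 and the unrelated protein ARF, had a low signal: 4.30 ± 0.21 (SD, n = 3) in mimic, 4.78 ± 0.24 in negative control and 4.50 ± 0.05 in mock arrays. Its log2 difference was -0.48 ± 0.13 (adjusted p = 0.173) from the negative control and -0.20 ± 0.13 (adjusted p = 0.631) from mock. Like CDK6 it read higher in negative control than in mock arrays, by 0.28. Of the turnover genes of cyclin D and p27, 0 of 8 passed in either mimic comparison. The lowest p against the negative control was that of FBXO4, an F-box protein reported to bind cyclin D1 (-0.43 ± 0.13, adjusted p = 0.222). Both measured subunits of the CDK-activating kinase failed to pass, with CCNH, its cyclin, at -0.16 ± 0.09 (adjusted p = 0.486).

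Downstream, 0 of 5 genes of cyclin E, cyclin A and CDK2 passed against either control. The lowest p was that of CCNA2, the S-phase and G2 cyclin (-0.20 ± 0.13 against the negative control, adjusted p = 0.589). Without mimic replicate 1 the CCNA2 difference was -0.05 from the negative control and -0.0027 from mock, so most of it rests on that array. Of 7 E2F and DP factors 0 passed, with TFDP2, a DNA-binding partner of E2F, at -0.26 ± 0.09 (adjusted p = 0.249). RBL1 and RBL2 repress cell cycle genes as part of the DREAM complex. Of 8 DREAM and MuvB partners 0 passed, with RBBP4, a histone-binding subunit, at 0.16 ± 0.08 (adjusted p = 0.421).

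Of 16 measured E2F-regulated genes 0 passed against either control. Against the negative control 15 had a negative change and 1 a positive one, with a median of -0.13 beside 0.01 over all genes, and 7 had no overlap, all lower (8.01% of all genes). Among these 7 are MCM2 (-0.10) and MCM3 (-0.07), whose negative control arrays hardly varied (SD 0 and 0.0056). Against mock 13 were negative, with a median of -0.09, and 2 had no overlap, both lower (5.44% of all genes). At an unadjusted limma p under 0.05 there were 2 genes against each control, all lower. In either direction, 12.6% and 10.7% of all genes had such a p. The list was chosen when lower values of DNA replication genes in these arrays were already known, so its direction is not independent evidence. RRM2, the regulatory subunit of ribonucleotide reductase, had the lowest p of the list against the negative control, at -0.37 ± 0.09 (adjusted p = 0.139), and differed by -0.29 ± 0.09 (adjusted p = 0.321) from mock. Against mock the lowest p was that of TYMS, thymidylate synthase, at -0.33 ± 0.07 (adjusted p = 0.144), a gene named after its values were seen. TYMS differed by -0.27 ± 0.07 (adjusted p = 0.158) from the negative control. Of the 14 genes with a RefSeq window, 11 hold the E2F-type letters searched above, beside 5.38% of all tested genes with a window. Over all 578 tested genes with these letters the median change against the negative control was -0.0027, beside 0.0077 over the 10749 tested genes with a window. In bulk RNA a smaller share of cells in S phase and less of these transcripts per cell cannot be told apart.

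Single arrays moved the E2F-regulated genes by amounts like the difference between groups. Relative to the mean of the 6 control arrays, the mean of the 16 genes was -0.18, -0.10 and -0.05 in mimic replicates 1 to 3. It was -0.07, -0.08 and 0.08 in mock and 0.02, 0.00 and 0.05 in negative control arrays. Mimic replicate 1 was the lowest array for these genes, as it was for CDK6 and RBL1, and mock replicate 3 was the highest of all 9, as it was for RB1 and RBL1. The part of this array-to-array variation in the differences of CDK6 and RBL1 was not tested.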

How the data were processed

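Expression was measured on 9 one-colour Affymetrix Human Gene 2.0 ST arrays, with 1 RNA sample per array. The authors processed them with RMA (background correction, normalization between arrays, probe summary), per the submitters' processing notes, and deposited 1 log2 value per probeset and array. No version of RMA, probe annotation or genome build is given in the sources used here. The platform's annotation pairs 16098 of 53617 probesets with 1 symbol; all gene identifiers matched RefSeq, and 37519 probesets are unnamed here. The deposited log2 values were fitted in R 4.3.3 with limma 3.58.1 (lmFit, eBayes): 1 mean per group over all 9 arrays, no filter, two-sided p-values adjusted over 14884 genes, threshold 0.05. Standard errors and 95% intervals are limma's moderated ones.

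All listed genes are named. From each pathway list the genes that passed are named, or otherwise the one with the lowest p against the negative control, with the 5 profiles closest to CDK6, which had the lowest such p of the 8 measured genes. The genes and lists were chosen with earlier results of these data known. The analysis was tested on simulated data. RBL1 promoter sequence is from RefSeq (GRCh38.p14). Alternatives were other scalings, a filter on dim genes, other probeset rules, variance models, array weights, 2 groups only, a replicate block, and each array left out.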

Additional observations from a re-analysis of the deposited data

How the results depend on the processing

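None of the 8 measured genes passed in any of 18 alternatives to any of the 3 comparisons (lowest adjusted p = 0.107, 0.372 and 0.482). Of 142 values per comparison, 137, 135 and 134 kept their sign. Signs turned for CDK4 against mock with quantile normalization (-0.025), median centring (-0.0085) and array weights (-0.000068), for CDK4 in negative control against mock with quantile normalization (-0.016), for CCND3 against the negative control with array weights (0.0092) and for RB1 in negative control against mock with array weights (0.016). With single arrays left out, values ranged for mimic against negative control from -0.10 to 0.047 (CCND3) and -0.052 to 0.028 (CDK4), for mimic against mock from -0.20 to 0.029 (CCND2) and -0.011 to 0.013 (CDK4), and for negative control against mock from -0.028 to 0.052 (CDK4), -0.051 to 0.032 (RB1) and -0.022 to 0.23 (RBL1). The filter on dim genes left out CCND2, CCND3 and CDKN2A.

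Of the neighbouring genes 1 passed in each mimic comparison, ESR1; the count was 0 against both controls with all probesets tested, with only the 6 arrays compared and with the replicate block, and 0 against mock with quantile normalization and median centring. Leaving out single arrays gave 0 to 1 against the negative control and 0 to 0 against mock. Over all genes, 82 passed against the negative control and 45 against mock. These counts became 263 and 102 with the filter on dim genes, 6 and 3 with all probesets, 8 and 1 with the 6 arrays compared, and 16 and 3 with the replicate block; against the negative control they became 169 with a variance trend and 268 with array weights. Without single arrays they ranged from 7 to 121 and from 1 to 10. Quantile normalization moved the split against mock from 25 higher and 20 lower to 12 and 22. The cause was not tested.

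The replicate numbers were not taken as pairs in the main fit. Deviations of same-numbered arrays from different groups correlated between -0.06 and 0.13, and those of differently numbered arrays between -0.18 and 0.16. For mimic and negative control, same-numbered arrays gave 0.11, 0.027 and 0.059, and differently numbered ones -0.074 to 0.025. The replicate block above is the alternative that takes the numbers into account. All 6 mimic and negative control arrays correlated best with their own number, and 2 of 6 mimic and mock arrays did.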
